A study of Homo sapiens with 4 samples.

Results

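The AP-1 and immediate early factors are 10 genes taken by name from the gene table: the FOS family (*FOS*, *FOSB*, *FOSL1*, *FOSL2*), the JUN family (*JUN*, *JUNB*, *JUND*) and *EGR1*, *IER2* and *IER3*. The table held 61541 genes, of which 16863 had enough counts to be tested, and all 10 factors were among them. RNA was sequenced from MHCC97H, an established human hepatocellular carcinoma (HCC) cell line, in 4 libraries: 2 of cells given a control shRNA (shCon) and 2 of cells given an shRNA against *UBXN1* (shUBXN1). UBXN1 is a ubiquitin-binding cofactor of the segregase p97, and the comparison asks which transcripts differ when it is depleted. The methods describe lentiviral pLKO.1 shRNA vectors, with the control called shRFP there and shCon in the sample labels. Which of the *UBXN1* shRNAs the sequenced cells carried is not given in the sources used here, so an effect of the target and an off-target effect of the hairpin cannot be told apart. The labels give no time of harvest and do not say whether libraries with different numbers came from separate cultures, so the p-values measure only the spread between these libraries.

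AP-1 is a dimer of basic leucine zipper (bZIP) proteins. JUN proteins pair with each other or with FOS proteins, whereas FOS proteins need a JUN partner to bind DNA. FOS and FOSB carry strong activation domains, FOSL1 (Fra-1) and FOSL2 (Fra-2) lack them, and JUNB and JUND are weaker activators than JUN in many settings. The immediate early genes are induced within minutes of a growth factor, cytokine or stress signal without new protein synthesis, through kinases that act on serum response factor (SRF), its ternary complex factor (TCF) partners and CREB at their promoters, and their mRNAs are short-lived. In the liver, JUN and FOS are induced after partial hepatectomy, and JUN protects hepatocytes and early tumor cells from death signals.

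*UBXN1* was checked first. It had 1788 and 1817 counts in the control libraries against 416 and 433 with the knockdown, where its normalised level was 24.5% of control (log2 fold change -2.03, SE 0.0963, adjusted p = 9.98e-10). Both knockdown libraries matched their labels. Here and below, counts are the deposited expected counts in whole numbers, CPM is the count scaled to the TMM-corrected library size, and each adjusted p comes from the quasi-likelihood test of edgeR, corrected by Benjamini and Hochberg's method over all genes tested.

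The factors did not move as a block. At an adjusted p under 0.05, 5 of the 10 rose (*FOSB*, *FOSL2*, *JUN*, *JUNB*, *IER3*), 4 fell (*FOS*, *JUND*, *EGR1*, *IER2*) and *FOSL1* did not pass. Calls at this threshold were common in the whole table: 28.0% of the genes tested were higher, 28.2% were lower and 56.2% differed in either direction. At the thresholds stated in the study's methods, a fold change of at least 2 with an unadjusted p under 0.05, 2 factors were higher (*FOSL2*, *JUNB*) and 2 were lower (*FOS*, *EGR1*), against 11.8% of genes higher and 6.09% lower. The CPM ranges of the groups were apart for 9 of the 10 factors, all but *FOSL1*, against 78.0% of the genes tested. The median log2 fold change of the factors was 0.15, against 0.016 over all genes tested, and the values ran from -2.90 to 1.11. In RNA from whole cultures, fewer cells that express a gene and less RNA per cell cannot be told apart.

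**Figure D1:**
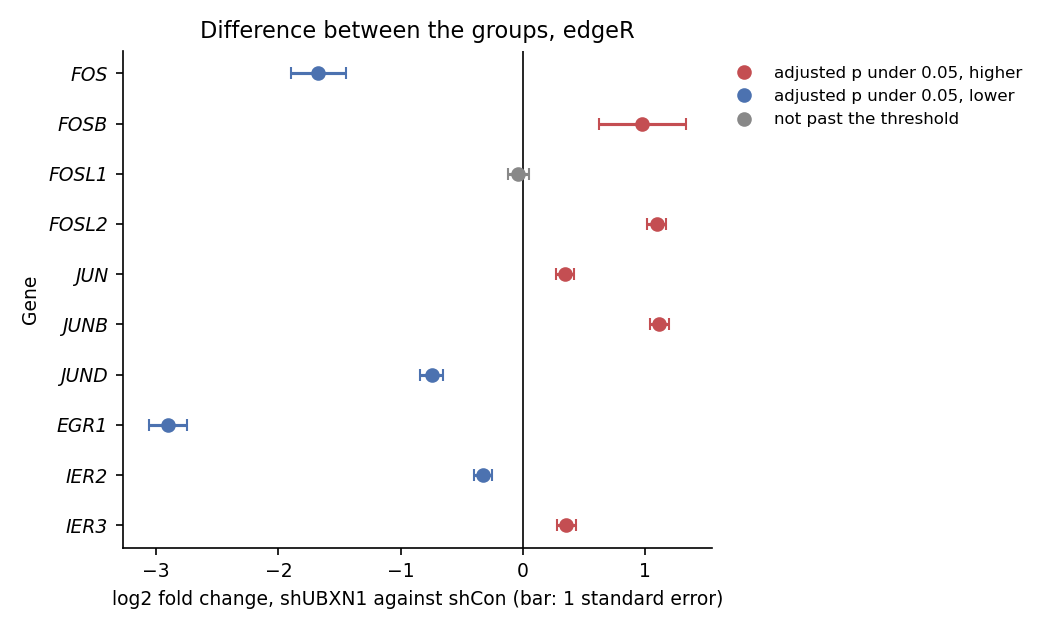
Log2 fold change of each factor in shUBXN1 against shCon, from edgeR on 2 libraries per group, with bars of 1 standard error and color by call at an adjusted p under 0.05. *EGR1* at -2.90 and *FOS* at -1.67 lie farthest to the left, *JUNB*, *FOSL2* and *FOSB* lie near 1 and *FOSL1* straddles 0.

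*EGR1*, a zinc finger factor that is induced by growth factors and is often used as a readout of ERK signaling, fell the most of the 10. The controls gave 994 and 1145 counts and the knockdown libraries 123 and 153. Scaled to library size, the controls stood at 37.3 and 48.7 CPM and the knockdown libraries at 4.97 and 6.54 CPM, and the highest knockdown library was far below the lowest control library. The mean was 43.0 ± 8.10 CPM (SD, n = 2) in shCon and 5.75 ± 1.11 CPM (SD, n = 2) in shUBXN1, a 7.48-fold lower level (log2 fold change -2.90, SE 0.152, adjusted p = 2.49e-09). *EGR1* lies at chr5:138465479-138469303 on the plus strand of GRCh38 in the GENCODE annotation, with 2 exons in its canonical transcript and no exon shared with another gene.

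*FOS*, the founding member of its family and the most transient, fell 3.19-fold. It was scarce throughout, with 192 and 200 counts in the controls against 51 and 67 after knockdown. The controls had 7.20 and 8.51 CPM, the knockdown libraries 2.06 and 2.86 CPM, and the groups did not overlap (log2 fold change -1.67, SE 0.226, adjusted p = 2.17e-05). The gene occupies chr14:75278826-75282230 on the plus strand.

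*FOSB* moved the other way from *FOS* but from the lowest level of all 10 genes. It had 28 and 47 counts in the controls against 82 and 62 after knockdown. The groups did not overlap, but the gap between the highest control library and the lowest knockdown library was smaller than the spread within shCon. The log2 fold change was 0.98 (SE 0.355, adjusted p = 0.0298), and the call was lost without shCon replicate 1 (log2 fold change 0.57, adjusted p = 0.255) and without shUBXN1 replicate 1 (0.80, adjusted p = 0.114). DESeq2 gave 0.97 with an adjusted p of 0.0732. *FOSB* lies at chr19:45467995-45475179 on the plus strand.

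*FOSL2*, the gene of Fra-2, rose 2.13-fold. The controls had 3890 and 3189 counts and the knockdown libraries 7487 and 6990, or 146 and 136 CPM against 303 and 299 CPM. The knockdown libraries were nearly equal to each other and lay above both controls (log2 fold change 1.09, SE 0.0750, adjusted p = 3.01e-08). *FOSL2* is at chr2:28392448-28417317 on the plus strand.

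*FOSL1*, the gene of Fra-1 and a factor linked to invasive growth in epithelial tumors, was the only one of the 10 whose groups overlapped. The controls had 2433 and 2345 counts of it, and the knockdown libraries 2134 and 2340. The log2 fold change was -0.037 (SE 0.0851, adjusted p = 0.734), and its sign turned with the scaling and with the libraries kept, between -0.15 and 0.061 over the alternatives run. *FOSL1* is at chr11:65892049-65900573 on the minus strand.

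Among the JUN genes, *JUNB* rose and *JUND* fell. *JUNB*, which can act against JUN in cell cycle control, had 41.3 and 44.0 CPM in the controls against 95.0 and 89.6 CPM after knockdown, and both knockdown libraries were above both controls. Its fold change of 2.17 (log2 fold change 1.11, SE 0.0778, adjusted p = 3.49e-08) rested on 1100 and 1034 counts for the controls against 2351 and 2097. *JUNB* is a gene of 1 exon at chr19:12791486-12793315 on the plus strand, and 14.2% of its exon bases are shared with *HOOK2* on the other strand. Whether strand was used in counting is not given in the sources used here, and without it reads from the shared bases cannot be assigned to either gene. *HOOK2* itself went from 347 and 346 counts to 1228 and 1050 (log2 fold change 1.77, adjusted p = 4.96e-09), and its part in the *JUNB* value was not tested.

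*JUND*, the JUN gene that most resting cells express steadily, fell 1.68-fold. It stood at 70.2 and 71.0 CPM in the controls against 37.3 and 46.9 CPM with the knockdown. The knockdown libraries differed from each other by more than the controls did, yet both lay below them (log2 fold change -0.75, SE 0.0965, adjusted p = 1.42e-05). The gene has 1 exon at chr19:18279694-18281622 on the minus strand, and at 69.9% its exon sequence has the highest GC content of the 10.

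*JUN*, the partner of FOS in the classical AP-1 dimer, rose by less, from 158 and 166 CPM in shCon to 201 and 211 CPM in shUBXN1. All 4 libraries held 3891 to 4968 counts of it, and the groups did not overlap. The fold change was 1.27 (log2 fold change 0.35, SE 0.0735, adjusted p = 0.00106). *JUN* has 1 exon at chr1:58776845-58784048 on the minus strand.

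The IER genes changed little in size and in opposite directions. *IER2*, a small nuclear protein induced together with FOS and EGR1, went from 73.5 and 78.4 CPM in the controls to 59.0 and 62.1 CPM. This was a 1.25-fold lower level (log2 fold change -0.33, SE 0.0762, adjusted p = 0.00217), and without shCon replicate 2 it no longer passed (-0.28, adjusted p = 0.0535). *IER3*, an early gene that acts in cell survival and is induced by NF-κB as well, had 41.9 and 41.5 CPM in the controls against 54.3 and 52.3 CPM. It rose 1.28-fold (log2 fold change 0.35, SE 0.0774, adjusted p = 0.00135), with both knockdown libraries above both controls.

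*IER2* lies at chr19:13150411-13154911 on the plus strand and *IER3* at chr6:30743199-30744548 on the minus strand. Other genes cover part of both on the opposite strand. For *IER2*, lncRNA genes cover 52.2% of the exon bases. None of them exceeded 12.54 counts in a library, against at least 1454 counts for *IER2*. For *IER3*, *IER3-AS1* covers 32.6% of the exon bases and had 5.83 to 22.48 counts per library, against at least 976 counts for *IER3*. As for *JUNB*, reads from shared bases cannot be assigned without the strand. What part the overlaps had in these values was not tested.

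The levels of the genes can be ranked in TPM, which divides each count by gene length before scaling to the library. In shCon the order was *FOSL1*, *JUN*, *JUND*, *IER3*, *IER2*, *JUNB*, *FOSL2*, *EGR1*, *FOS* and *FOSB*, and the ranges of neighbors over the 2 libraries were apart at every step. The mean TPM ran from 112 ± 4.73 (SD, n = 2) for *FOSL1* to 0.807 ± 0.340 (SD, n = 2) for *FOSB*. In shUBXN1 *JUN* came first at 132 ± 2.15 TPM, *JUNB* rose from the sixth place to the third at 106 ± 9.92 TPM, and *JUND* dropped from the third place to the sixth at 45.4 ± 4.96 TPM (SD, n = 2 each). The TPM ranges of *FOSL1* and *JUNB*, of *FOSL2* and *IER3*, and of *JUND* and *IER2* overlapped there, so these neighbors did not differ beyond their spread. *EGR1*, *FOS* and *FOSB* were the lowest in both groups, in the same order.

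**Figure D2:**
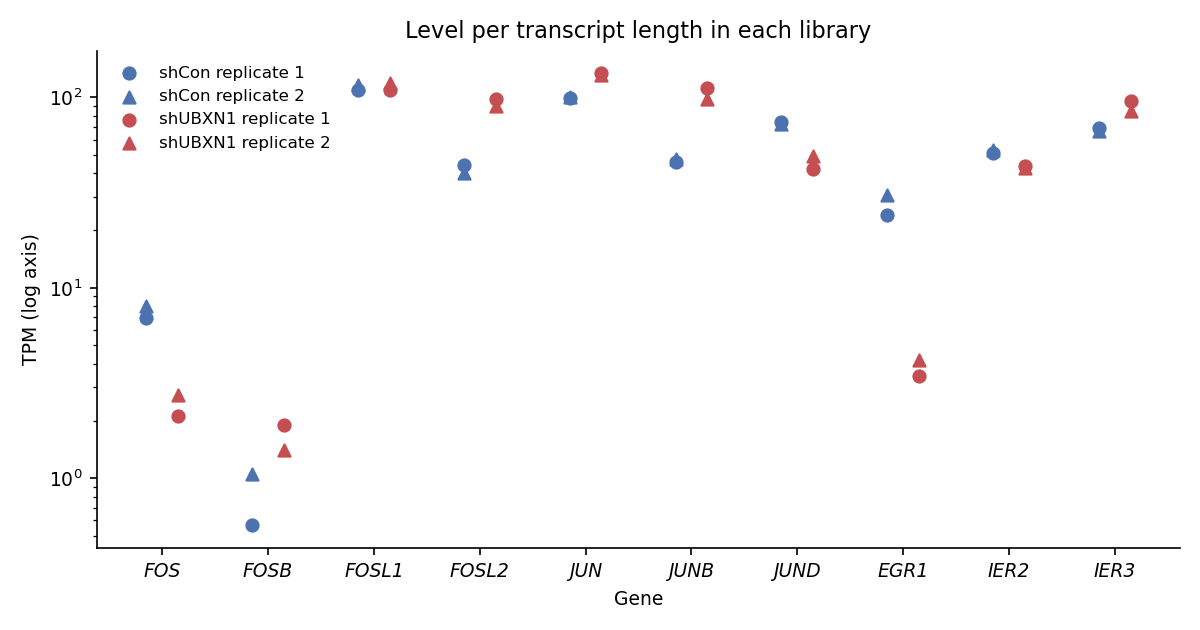
TPM of each factor in every library on a log axis, with shCon in blue and shUBXN1 in red, and circles and triangles for replicates 1 and 2. *EGR1* and *FOS* drop clear of their controls, *FOSL2* and *JUNB* rise toward the level of *FOSL1* and *JUN*, and the points of *FOSL1* overlap.

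Summed over each family, the TPM total was higher in shUBXN1 for FOS and JUN alike. The FOS family added up to 161 and 165 TPM in the control libraries and to 212 TPM in each knockdown library. The share of *FOSL2* in this sum was 25.9% ± 2.30 in shCon and 44.2% ± 2.78 in shUBXN1, while *FOSL1* made up 69.1% ± 1.73 and 53.9% ± 2.74 (SD, n = 2 each). *FOS* made up 4.59% ± 0.368 in shCon and 1.15% ± 0.204 in shUBXN1, and *FOSB* was under 1% in every library. The FOS family mRNA in these cells was thus nearly all from the genes of Fra-1 and Fra-2, in both groups.

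The JUN family added up to 219 and 221 TPM in the controls and to 288 and 278 TPM after knockdown. The share of *JUN* moved the least, from 45.4% ± 0.220 in shCon to 46.7% ± 0.412 in shUBXN1. *JUNB* and *JUND* exchanged places: *JUNB* was 21.2% ± 0.400 and then 37.2% ± 2.57 of the sum, and *JUND* was 33.4% ± 0.620 and then 16.1% ± 2.16 (SD, n = 2 each). Shares of a sum are not independent of each other, and with 2 libraries per group an exact permutation test cannot reach 0.05, so none was run on them.

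The promoters of the factors are shown because the genes split into risers and fallers although they are often induced together. RefSeq promoter entries on GRCh38.p14, from 250 bases before to 50 bases after the transcription start, matched 8 of the 10 genes; *FOSL1* and *IER3* had no entry. Positions count from -1 at the last base before the start. Stretches of 150 bases are given in the direction of the gene, with capitals for the motifs searched on both strands: the CArG box bound by SRF, the CRE TGACGTCA and its core TGACG bound by CREB and ATF proteins, and the TATA box TATAAA. Those printed for *EGR1*, *FOS*, *FOSB* and *JUNB* run from -150 to -1. That of *JUND* runs from -250 to -101 and leaves out a TGACG core from -86 to -82 on the other strand. The stretches are chr5:138465329-138465478 (plus strand), chr14:75278678-75278827 (plus), chr19:45467846-45467995 (plus), chr19:12791336-12791485 (plus) and chr19:18281723-18281872 (minus), in the order below.
EGR1: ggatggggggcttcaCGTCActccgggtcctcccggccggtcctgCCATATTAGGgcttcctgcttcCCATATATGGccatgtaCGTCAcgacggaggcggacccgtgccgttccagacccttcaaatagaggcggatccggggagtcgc
FOS: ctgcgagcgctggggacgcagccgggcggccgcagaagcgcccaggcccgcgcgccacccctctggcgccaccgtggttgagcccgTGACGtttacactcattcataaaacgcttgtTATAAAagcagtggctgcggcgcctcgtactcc
FOSB: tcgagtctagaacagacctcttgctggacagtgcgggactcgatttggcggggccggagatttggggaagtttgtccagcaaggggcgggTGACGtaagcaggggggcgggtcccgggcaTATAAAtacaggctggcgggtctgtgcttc
JUNB: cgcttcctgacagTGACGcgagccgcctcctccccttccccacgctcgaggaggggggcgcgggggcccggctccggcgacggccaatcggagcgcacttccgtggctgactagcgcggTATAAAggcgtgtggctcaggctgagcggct
JUND: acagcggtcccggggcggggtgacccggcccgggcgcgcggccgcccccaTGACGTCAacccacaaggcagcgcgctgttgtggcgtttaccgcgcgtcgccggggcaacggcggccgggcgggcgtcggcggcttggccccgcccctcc

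*EGR1* was the only one of the 8 with a CArG box in this window, and it held 2, from -105 to -96 and from -83 to -74. Over all 35116 promoter entries of the same length, 1.29% held a CArG box. The core TGACG, which is also part of the full CRE, was in all 8 promoters, those of risers and fallers alike, and in 24.6% of all promoters. The full CRE was found only in *JUND*, from -200 to -193, and in 1.85% of all promoters. A TATAAA box was in *FOS*, *FOSB* and *JUNB*, starting at -33, -30 and -31, and in 11.5% of all promoters; of these genes *FOS* fell and the other two rose. An AP-1 site, TGANTCA, was found only in *FOSL2*, just after the start in its RefSeq entry, and in 7.71% of all promoters. That entry, chr2:28392608-28392907, lies inside the GENCODE gene given above, so the 2 sources place the start differently. The EGR1 site GCGTGGGCG was in none of the 8 and in 0.795% of all promoters. These matches describe the letters in the window only. Sites outside it were not searched, and what part the motifs had in the changes was not tested.

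Genes that work with the factors were counted from lists written from general knowledge. The list of SRF, TCF and CREB factors also holds coactivators of these factors. The shares to set beside each list are those over all genes tested, 28.0% higher and 28.2% lower. Of 13 other bZIP partners (ATF, BATF, JDP2 and MAF proteins), 11 were tested, 6 rose, 2 fell and 3 did not pass, with a median log2 fold change of 0.59 against 0.016 over all genes; without shCon replicate 1, 1 fell. *MAFG* (log2 fold change 1.86, SE 0.119, adjusted p = 1.48e-08) and *MAFF* (1.45, SE 0.121, adjusted p = 1.90e-07), small MAF proteins that lack an activation domain, rose at least 2-fold. Of the 11 SRF, TCF and CREB factors, 5 fell, 6 did not pass and 0 rose in edgeR (0 also at an unadjusted p under 0.05 and by DESeq2), with a median of -0.22, although 2 were called higher with total count scaling and 1 with each of upper quartile scaling, limma on log2(TPM + 1), at least 10 counts in every library and shUBXN1 replicate 1 left out. *SRF* fell from 40.7 and 42.7 CPM to 19.9 and 21.2 CPM (log2 fold change -1.02, SE 0.0902, adjusted p = 3.42e-07). Its own first promoter entry held 2 CArG boxes. What part SRF had in the values of the factors was not tested.

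Over all genes tested, 28.0% were higher and 28.2% lower. Of 30 other immediate early genes, 29 were tested, 15 rose, 9 fell and 5 did not pass, with a median log2 fold change of 0.41. The number that fell was 5 without shCon replicate 1, 4 without shCon replicate 2 and 6 with DESeq2, while 13 to 17 rose under every alternative run. *NR4A1*, an orphan nuclear receptor gene induced together with *EGR1* in many cells, went from 3.26 and 3.87 CPM to 17.4 and 17.2 CPM (log2 fold change 2.28, SE 0.152, adjusted p = 2.33e-08), with 10.3% of its exon bases shared with a gene on the other strand. *BTG2*, an antiproliferative gene, rose by 1.79 on the log2 scale (SE 0.178, adjusted p = 1.09e-06). *ARC* rose by 3.27 (SE 0.442, adjusted p = 2.17e-05), from only 10 and 5 counts to 61 and 79. *KLF2*, a Krüppel-like factor, fell, from 10.7 and 13.2 CPM to 2.91 and 3.08 CPM (log2 fold change -2.00, SE 0.183, adjusted p = 5.00e-07).

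Of 21 MAP kinases upstream, all tested, 6 rose, 8 fell and 7 did not pass, with a median of 0.02. Among all genes tested, 28.0% were higher and 28.2% lower. The p38 branch held changes in both directions. *MAP2K3* (log2 fold change -1.81, SE 0.0895, adjusted p = 1.48e-09) and *MAP2K6* (-1.48, SE 0.108, adjusted p = 5.60e-08), the kinases that activate p38, fell, and *MAPK12*, the gene of p38γ, rose (1.40, SE 0.111, adjusted p = 1.18e-07), although 29.7% of its exon bases are shared with *HDAC10* on the same strand. *RPS6KA5*, the gene of the nuclear kinase MSK1, rose (1.49, SE 0.167, adjusted p = 3.59e-06). Of 7 EGR1 corepressors and AU-rich mRNA decay factors, 1 rose, 4 fell and 2 did not pass (median -0.30), and no gene of this list met the thresholds of the study's methods. Without shCon replicate 2, 3 of the 7 passed in place of 5, all of them lower.

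Of 28 genes known as AP-1 targets, 22 were tested, 9 rose, 9 fell and 4 did not pass, with a median of 0.22. Calls in both directions were common in the whole table, with 28.0% of genes higher and 28.2% lower. *MMP1*, the interstitial collagenase and a textbook AP-1 target, fell from 15.3 and 16.1 CPM to 3.23 and 2.22 CPM (log2 fold change -2.52, SE 0.181, adjusted p = 4.67e-08). *EREG*, an EGF receptor ligand, fell as well (-2.09, SE 0.0817, adjusted p = 1.81e-10). *IL11*, a cytokine of the IL-6 family, rose (2.13, SE 0.511, adjusted p = 0.00264) on only 16 and 6 counts in the controls against 62 and 31, and its log2 fold change was 2.88 without shCon replicate 1 and 1.59 without shUBXN1 replicate 1. Fewer targets passed when either control library was left out, and so did fewer genes of the whole table. The cause was not tested. What part the changed AP-1 genes had in these targets was not tested.

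**Figure D3:**
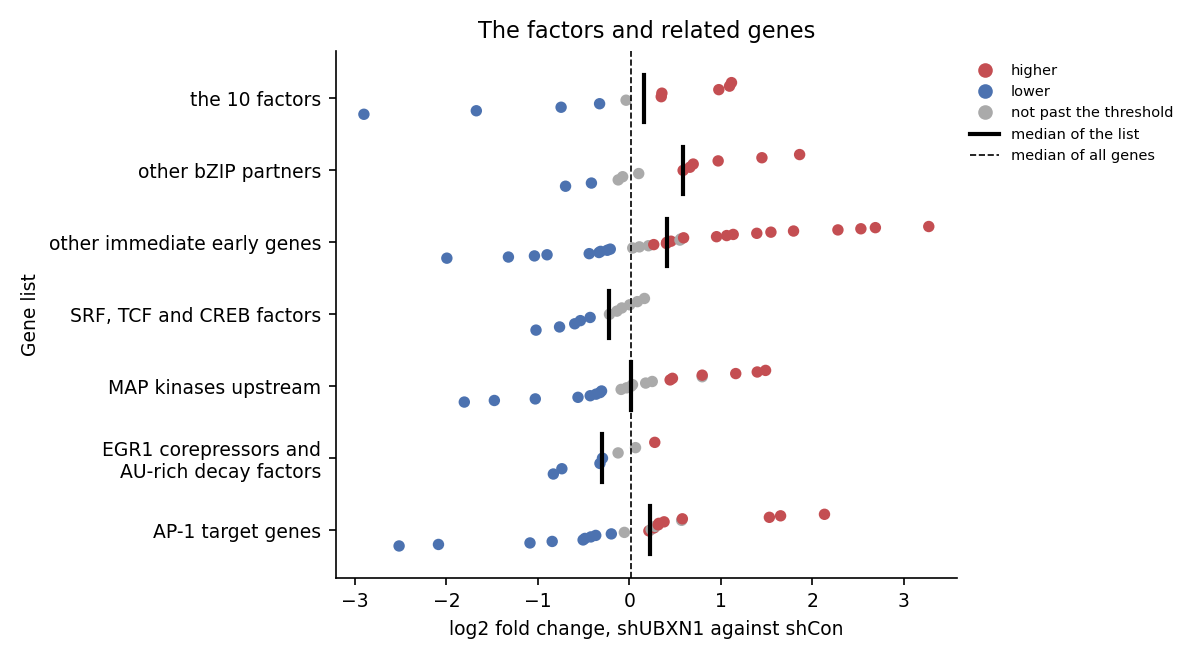
Log2 fold change of every tested gene in the 10 factors and in 6 lists of related genes, colored by call at an adjusted p under 0.05, with a bar at each list's median and a dashed line at the median of all genes tested. Red and blue points stand on either side of 0 in every list except the SRF, TCF and CREB factors, where no gene is called higher in the test shown (1 or 2 are under 5 of the alternatives).

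Apart from *FOSB*, *IER2* and *FOSL1*, whose exceptions are given above, the factors kept their direction under each alternative tool, scaling, filter and left-out library. They also kept their call at an adjusted p under 0.05. *EGR1* stayed between -3.11 and -2.56 on the log2 scale over all alternatives, *FOSL2* between 1.04 and 1.18, *JUNB* between 0.89 and 1.20 and *JUND* between -1.10 and -0.60. *FOSB* had the widest range, 0.56 to 1.5.

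**Figure D4:**
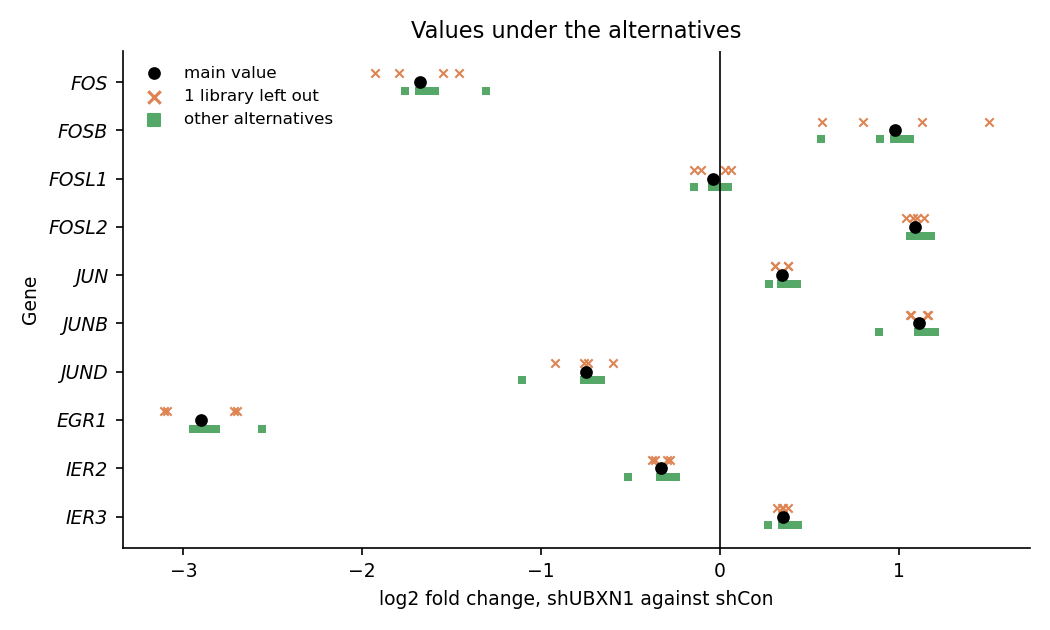
Log2 fold change of each factor under the main test (black), with 1 library left out (orange crosses) and under the other alternatives (green squares). *FOSL1* crosses 0, *FOSB* spreads from 0.56 to 1.5, and each of the other factors stays on its side of 0.

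The libraries held 23373700 to 27380508 counts. Mitochondrial transcripts made up 5.28% and 5.59% of the counts in shCon and 7.43% and 8.27% in shUBXN1. Of the 4 epithelial markers, which summed to 5336 and 5387 TPM in shCon and 4604 and 5021 TPM in shUBXN1, *KRT8* fell (-0.44 on the log2 scale), *KRT18* (0.31) and *CDH1* (1.18) rose and *EPCAM* had at most 19 counts. The 9 hepatocyte and HCC markers summed to 55.3 and 53.1 TPM in shCon and 30.0 and 27.6 TPM in shUBXN1, with 5 lower and 1 higher and the HCC marker *GPC3* at 3 counts or fewer in every library. The 4 endothelial markers summed to 15.2 TPM in each shCon library and to 31.9 and 32.1 TPM in shUBXN1, where *PECAM1* and *KDR* rose, while *CDH5* had at most 6 counts. The 5 leukocyte markers summed to 99.7 and 103 TPM in shCon and 94.0 and 84.2 TPM in shUBXN1, nearly all from *CD68*, with *CD3E* at 0 in every library. The 5 fibroblast markers summed to 0.389 and 0.347 TPM in shCon and 1.42 and 1.34 TPM in shUBXN1, where *COL1A1* rose from 10 and 4 counts to 58 and 59. *COL3A1* went from 7 and 15 counts to 4 and 3, and only *COL1A1* of these markers had enough counts to be tested. What part the mitochondrial share or these markers had in the values of the factors was not tested.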

How the data were processed

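Total RNA of 4 MHCC97H libraries was sequenced in paired ends. For each gene the authors deposited expected counts, which are not normalized, and a length. By the methods, reads were aligned with Hisat2 to GRCh38 and TPM and limma were used. The submitters' processing notes list HISAT2 2.0.4, StringTie 1.3.0 and GRCh37. Of the gene IDs, 99.7% are in GENCODE release 44, an annotation of GRCh38, whose coordinates are given. The methods name a TruSeq kit and the labels a VAHTS mRNA kit. The counting tool, the annotation release and the use of strand are not given in the sources used here.

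Expected counts were rounded, filtered with filterByExpr and scaled with TMM. The quasi-likelihood test (glmQLFit, glmQLFTest) of edgeR 4.0.16, run in R 4.3.3 with no block, gave the p-values. The SE is the absolute log2 fold change over the root of the F statistic. TPM was computed from the counts and the deposited lengths. Counting error and the spread between libraries enter the SE, but 2 libraries per group limit how well that spread is known. The fit was run on simulated data with 200 changed genes, whereas 9478 genes were called in these data. That simulation cannot show how the fit behaves with so many changes. Replicates differed by more than sampling noise, with a chi-square per degree of freedom of 3.83 in shCon and 8.48 in shUBXN1. This used total counts without TMM, so a difference in composition between replicates enters these values.

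The members, the lists and the tests were chosen with earlier results of these data known. Named were all 10 factors, *UBXN1* and, from each list, at most the 4 genes with the largest change among those with an adjusted p under 0.05, an absolute log2 fold change of at least 1 and a mean log2 CPM above 0. Marker genes, and genes that overlap a factor, are named beside the results they touch. A gene that the rule picks is not reported here. Alternatives were DESeq2 1.42.0, limma-voom and limma on log2(TPM + 1) with limma 3.58.1, total count and upper quartile scaling, no filter, at least 10 counts in every library, a replicate block, unrounded counts, each library left out and a fold change threshold of 2. Removal of a GC trend was added after seeing the data.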

Additional observations from a re-analysis of the deposited data

How the results depend on the processing

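Of 140 alternative log2 fold changes of the factors, 131 kept their direction and side of the threshold, and so did all 208 of the 15 related genes that the naming rule picked. *FOSB* did not pass with DESeq2 (0.97, adjusted p = 0.0732) or without replicate 1 of shCon or of shUBXN1 (leave-one-out values 0.57 to 1.5), and *IER2* did not pass without shCon replicate 2 (-0.28). *FOSL1*, which passed under no alternative, was above 0 with limma on log2(TPM + 1) (0.019), total count scaling (0.045) and upper quartile scaling (0.032), and ran from -0.15 to 0.061 with each library left out (0.028 without shCon replicate 2). With a fold change threshold of 2 and an unadjusted p, 4 factors passed, 2 higher and 2 lower. With each library left out, 3 to 6 of the EGR1 corepressors and AU-rich decay factors and 11 to 17 of the AP-1 target genes passed. Those fits of 3 libraries assume that the lone library varies like the other group, and the cause of the losses was not tested. With total count scaling the median over all genes became 0.10 on the log2 scale, and 2 of the SRF, TCF and CREB factors were called higher. Of the other immediate early genes, 6 fell with DESeq2. With the GC trend removed, *JUND* was at -1.10, *JUNB* at 0.89 and *IER2* at -0.51. No call on a factor at an adjusted p under 0.05 was lost. *JUNB* then fell short of a fold change of 2, and *JUND* passed it.

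With the replicate number as a block, 5000 genes were higher and 5023 lower, against 4727 and 4751 without it. *FOSB* was then at 1.01, past a fold change of 2, and no call on a factor at an adjusted p under 0.05 changed. The labels do not say whether libraries with the same number were made together. The correlation of their deviations from the group means was 0.0393, which alone cannot settle it. Genes with few counts, *FOSB* and *FOS* among the factors, have the largest errors at this depth.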
